A study of Mus musculus with 18 samples.

Results

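The refed Paneth gate was set against the ad libitum fed one in 3 of the 18 libraries of a mouse crypt RNA-seq series. Members were chosen by their labels and not by any measured value: the young refed and the old refed library of the Paneth gate, and the old fed library of the same gate. The old fed library is the only fed one whose labels all name the Paneth gate: 1 library of young mice is called fed Paneth in one label and fasted progenitor in the others, and it enters the model as fasted progenitor. A library labelled young fasted stem was left out, because Lyz1 was at 60310 CPM in it before scaling, against 299 to 430 in the 6 other stem libraries. That choice, unlike the choice of members, rests on a measured value. Another library has the same title text and barcode as the left-out one and stays in the model as young fasted stem. The 15 libraries of undisputed label named below are without it and without the fasted progenitor library above. All animals were C57BL/6 mice carrying an Lgr5-GFP reporter, and cells were sorted from small intestinal crypts as Lgr5-GFP high stem cells, Lgr5-GFP low progenitors or CD24+ c-Kit+ Paneth cells. Fed mice ate ad libitum, fasted mice went without food for 24 hours, and re-fed mice (refed below) have that label alone, with no duration given in the sources used here. The ages are given as young and old only. Each of the 3 groups is 1 library, and nothing in the labels says whether the libraries came from separate animals or from pools. No group in the model has a replicate. The p-values therefore set each difference against what age and diet, as added terms within each gate, leave unexplained. That remainder is not a spread between like libraries, and it may be technical.

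Paneth cells sit between the stem cells at the crypt base. They make and store large amounts of lysozyme, defensins and other antimicrobial proteins, which pass through the endoplasmic reticulum (ER), and they supply neighbouring stem cells with growth signals such as Wnt3 and Egf. Fasting shifts cells of the gut toward fatty acid oxidation and ketone production, and food returns amino acids, glucose and insulin, which drive protein synthesis. Newly made proteins need chaperones to fold, in the cytosol through the heat shock response and in the ER through the unfolded protein response.

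The 17 libraries of the model held between 10631300 and 16252700 counts, and the old fed, young refed and old refed Paneth libraries held 13606500, 15654700 and 14376100. Genes with no symbol took 11.8% of the counts in the old fed library, 8.28% in the young refed and 7.59% in the old refed one. In the young and old fasted Paneth libraries they took 6.20% and 8.10%, so the only fed library stood apart. A list of 25 Paneth markers made up 39.6% of the counts in the old fed library, 39.5% in the young refed and 43.9% in the old refed one, against 0.164% to 0.254% in the 6 stem libraries. Markers of other cells were present. Summed CPM (counts scaled to the library total, here before TMM) were 2506, 1325 and 1222 for 24 stem markers, 3508, 5673 and 2211 for 24 enterocyte markers, 250, 450 and 232 for 16 tuft markers, 7460, 7513 and 7442 for 15 goblet markers, and 358, 285 and 256 for 20 immune markers, in that order of libraries. The stromal and endothelial list summed to 2.92 to 4.70 CPM, with Col1a2, Col3a1, Dcn, Lum, Myh11, Cdh5, Kdr and Sox10 at 0 in all 3, and the mast cell list to 0.278 to 0.514 CPM. In bulk RNA, fewer cells of a type and less RNA per cell cannot be told apart.

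Refeeding came with higher cytosolic and ER chaperones and with lower cell division, ribosomal protein and respiratory chain genes than in the fed library, while the main antimicrobial products did not pass the test. One model over the 17 libraries, with age and diet as terms within each gate, was tested by edgeR's quasi-likelihood test with Benjamini-Hochberg adjustment over 15386 genes, and a gene was called at an adjusted p under 0.05. In refed against fed, 380 genes were higher (2.47% of those tested) and 935 lower (6.08%), 8.55% in all, and the median log2 difference of all genes was -0.04. Far fewer genes passed without the old refed library than without the young refed one. By design the fitted difference leans most on the old refed library, because it shares its age with the only fed one. Leaving out a library therefore does not show which refed library carries the differences. The old fed library stands in every refed-against-fed difference of the gate and could not be left out. Because the only fed library is old, the age difference is taken from the fasted and refed pairs of the gate, and it cannot be checked in fed cells.

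**Figure D1:**
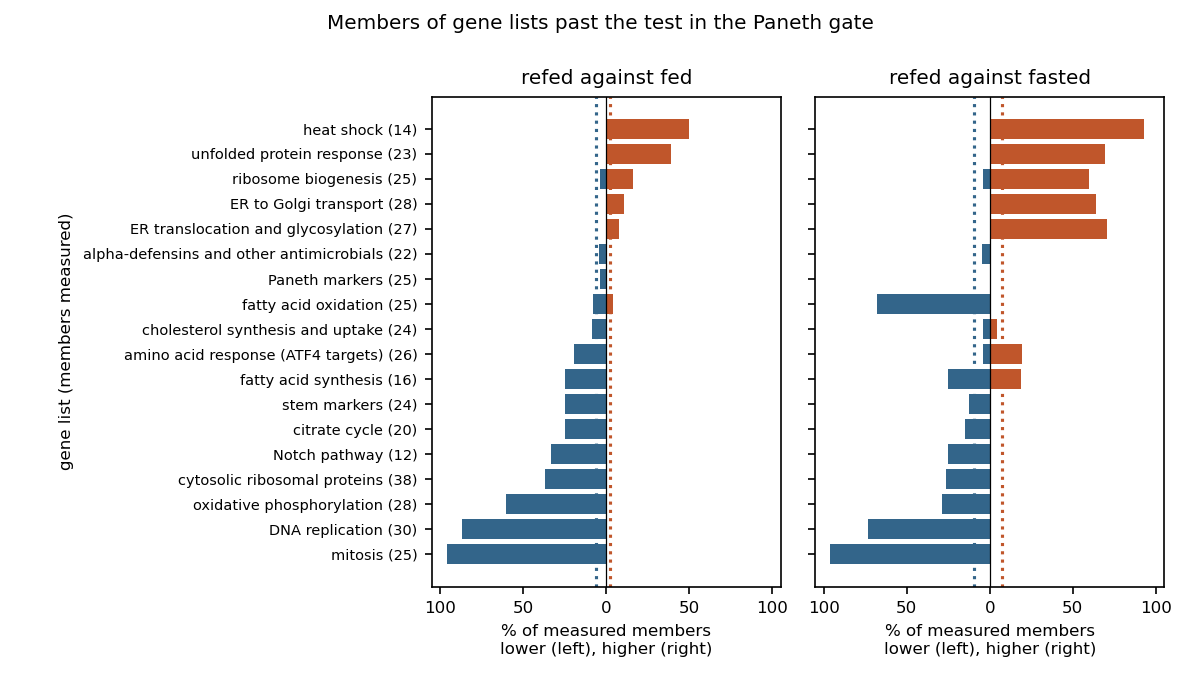
Share of the measured members of 18 gene lists that passed the test in the Paneth gate, as bars to the right (higher) and to the left (lower), for refed against fed and refed against fasted; dotted lines mark the share of all 15386 genes called in that direction. Heat shock and unfolded protein response members extend to the right in both panels, and mitosis and DNA replication members to the left.

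Cytosolic chaperones of the heat shock response stood out among the higher genes. Of 14 measured members, 7 were higher and none lower, against 2.47% of all genes, and the list's median log2 difference was 1.24 beside -0.04 for all genes. Hspa8, the constitutive Hsp70 that folds new chains, was at 960 CPM (scaled by TMM factors, as for every gene below) in the old fed library, 2992 in the young refed and 2689 in the old refed one. Both refed libraries were above the fed one, and the fitted log2 difference of Hspa8 was 1.55 (SE 0.20, adjusted p = 0.0011). Hsp90aa1, the inducible cytosolic Hsp90, was at 225, 729 and 624 CPM, a log2 difference of 1.51 (SE 0.16, adjusted p = 0.000457). Hsph1, the nucleotide exchange factor that works with Hsp70, was at 39.7, 386 and 289 CPM, and rose by 2.92 (SE 0.43, adjusted p = 0.0103). The Hsp40 Dnaja1, which hands clients to Hsp70, was at 86.5, 360 and 246 CPM and rose by 1.60 (SE 0.27, adjusted p = 0.00733).

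Hspa1a, the stress-induced Hsp70, was at 0.548 CPM in the old fed library, 178 in the young refed and 52.1 in the old refed one, from 3.61, 1586 and 393 expected counts. The fitted log2 difference was 6.55 (SE 0.98, adjusted p = 0.012), and its size rests on the few counts in the fed library. Without the age term its adjusted p was 0.101. Its near-identical copy Hspa1b was at 3.70, 573 and 212 CPM with an adjusted p of 0.101, and the counting could split reads between the copies. Gm20481, which overlaps Hspa1a on the other strand, was at 0.411, 90.9 and 33.4 CPM, and without strand its reads and those of Hspa1a cannot be told apart. The mitochondrial chaperonins Hspd1 and Hspe1 had log2 differences of 0.11 and 0.28 and did not pass. Leaving out the old refed library left 2 heat shock members past the test, and leaving out the young refed one left 7.

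**Figure D2:**
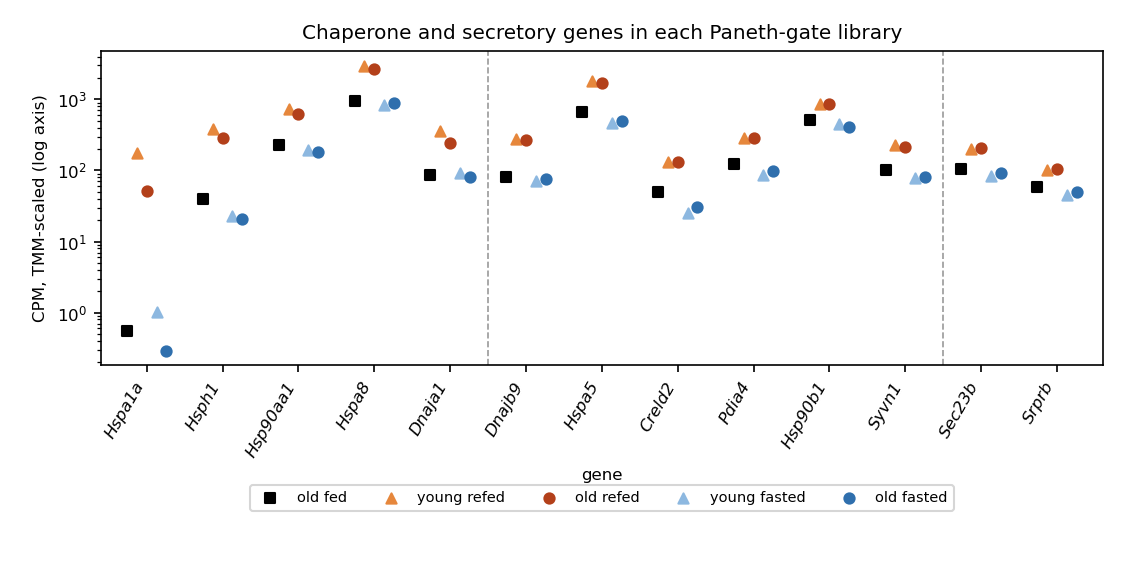
CPM on a log axis in each of the 5 Paneth-gate libraries for 5 heat shock genes, 6 unfolded protein response genes and 2 genes of ER entry and exit, separated by dashed lines; squares, old fed; triangles, young; circles, old. For every gene shown, both refed libraries lie above the fed and the fasted ones, as for Hspa8 at 2992 and 2689 against 960 CPM.

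The unfolded protein response had 9 of 23 measured members higher (2.47% of all genes were) and none lower, with a median log2 difference of 0.59. Among them Hspa5 (BiP, the main ER Hsp70), Creld2 (an ER stress-induced secretory factor) and Hsp90b1 (the ER Hsp90) hold in their promoters the ER stress element, to which ATF6 binds with NF-Y. RefSeq promoters on GRCm38.p6, each 250 bases before to 50 after a start, were searched on both strands for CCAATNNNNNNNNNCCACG, a motif that overlaps the CCAAT box. It matched 39 of 32851 promoters (0.119%), and 8 of the 18 list members that have an entry. Of the 7 called members with an entry, 4 held a match, the fourth being Syvn1. The lines below give the bases directly upstream of the start for 3 of them, 5′ to 3′ on the gene's strand, chosen because the called gene carries the element, with the match in capitals: Hspa5 at chr2:34771970-34772089 (+), Creld2 at chr15:88819496-88819645 (+) and Hsp90b1 at chr10:86705445-86705684 (-).
Hspa5: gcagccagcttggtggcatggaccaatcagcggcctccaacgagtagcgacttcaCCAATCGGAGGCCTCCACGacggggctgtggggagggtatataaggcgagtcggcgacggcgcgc
Creld2: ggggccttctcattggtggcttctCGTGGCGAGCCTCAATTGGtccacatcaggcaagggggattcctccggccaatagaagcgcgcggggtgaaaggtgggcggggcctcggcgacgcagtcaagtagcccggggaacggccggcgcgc
Hsp90b1: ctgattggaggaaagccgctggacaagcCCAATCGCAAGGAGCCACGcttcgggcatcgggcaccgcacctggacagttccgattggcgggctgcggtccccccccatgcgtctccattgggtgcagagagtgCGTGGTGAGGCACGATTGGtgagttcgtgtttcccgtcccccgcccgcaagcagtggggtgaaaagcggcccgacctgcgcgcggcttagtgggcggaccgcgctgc
The match begins 65 bases before the start in Hspa5 and 126 in Creld2, and Hsp90b1 has 2 matches. A match describes letters only and says nothing of binding in these cells.

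Hspa5 itself was at 666 CPM in the old fed library, 1800 in the young refed and 1720 in the old refed one, a rise of 1.40 on the log2 scale (SE 0.26, adjusted p = 0.00849). Creld2 went from 50.3 CPM to 132 and 133, a difference of 1.46 (SE 0.22, adjusted p = 0.00324). Hsp90b1 was at 510, 848 and 864 CPM and rose by 0.73 (SE 0.17, adjusted p = 0.0213). In all 3 genes the young and old refed libraries were close to each other and above the fed one.

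Dnajb9 (ERdj4, the ER Hsp40 that returns IRE1 to rest) had the smallest adjusted p of the list, at 81.3, 280 and 268 CPM, with a log2 difference of 1.76 (SE 0.16, adjusted p = 0.000171). Pdia4, a disulfide isomerase of the ER, was at 121, 286 and 286 CPM and rose by 1.27 (SE 0.17, adjusted p = 0.00117). Hyou1, Syvn1, Manf and Sel1l also passed. The sensors and their factors did not: Xbp1 was at 383, 329 and 358 CPM (adjusted p = 0.885), and Atf6 and Ern1 had log2 differences of -0.01 and 0.00. Ddit3 (CHOP), tied to lasting ER stress, was at 9.86, 15.6 and 20.3 CPM with an adjusted p of 0.064. Without the old refed library 2 members passed, and without the young refed one 5.

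Genes for entry into and exit from the ER moved little against the fed library. Of 27 translocation and glycosylation genes, 2 were higher and none lower, and of 28 ER-to-Golgi genes, 3 were higher and none lower, with medians of 0.15 and 0.14. The shares of all genes were 2.47% higher and 6.08% lower. Srprb, a subunit of the signal recognition particle receptor, was at 57.7, 103 and 106 CPM, and rose by 0.90 (SE 0.14, adjusted p = 0.0025). The COPII coat gene Sec23b was at 104, 203 and 207 CPM, and rose by 1.01 (SE 0.12, adjusted p = 0.000869). Both refed libraries were again above the fed one. Sec62, Sec24c and Lman2 were the others called, with log2 differences of 0.41, 0.49 and 0.54. Of 25 ribosome biogenesis genes 4 were higher and 1 lower. Nolc1, a nucleolar scaffold, went from 65.7 CPM to 119 and 108 (log2 difference 0.72, SE 0.13, adjusted p = 0.00561), and Rrp12, a ribosome export factor, from 22.5 to 44.0 and 44.2 (0.98, SE 0.17, adjusted p = 0.00583). The lower member was Npm1, the histone chaperone of the nucleolus, at 313, 195 and 190 CPM.

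Genes that burn fat and ketone bodies had calls in both directions. Acadl, which starts the oxidation of long-chain acyl-CoA, was at 73.8, 147 and 161 CPM and rose by 1.08 (SE 0.16, adjusted p = 0.00197). It was the only higher one of 25 fatty acid oxidation genes, and Echs1 and Eci1 were lower, by -0.53 and -0.74. Of all genes 2.47% were higher and 6.08% lower, so the calls in this list were near those shares. Oxct1, which lets a cell burn ketone bodies, fell from 75.9 CPM to 29.4 and 23.2, a log2 difference of -1.69 (SE 0.13, adjusted p = 9.94e-05).

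A further pair of genes of the fasting response did not pass against fed. Pdk4, which blocks pyruvate entry into the citrate cycle, was at 4.38, 3.71 and 2.25 CPM, from 32, 33 and 17 counts. Its log2 difference was -0.96 (SE 0.32, adjusted p = 0.0882), so a fall was not excluded. Cpt1a, which carries fatty acids into mitochondria, was at 112, 129 and 146 CPM (0.29, SE 0.18, adjusted p = 0.361). Among 16 fatty acid synthesis genes, 4 were lower and none higher, against 6.08% and 2.47% of all genes. The desaturases Fads1 and Fads2, which make polyunsaturated fatty acids, led them: Fads1 went from 56.1 CPM to 17.7 and 19.9 (log2 difference -1.45, SE 0.22, adjusted p = 0.00264). Fads2 went from 77.5 to 35.4 and 27.1 (-1.38, SE 0.16, adjusted p = 0.000712). Fasn, the fatty acid synthase, was at 180, 226 and 253 CPM (adjusted p = 0.057), and the lipogenic factor Srebf1 at 90.7, 62.8 and 76.4 CPM (adjusted p = 0.154).

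Against the fed library, amino acid and glucose handling genes were lower where they passed. Of 26 targets of the amino acid response factor ATF4, 5 were lower and none higher, with a median of -0.61. Of all genes 6.08% were lower and 2.47% higher. Slc7a11, the cystine importer, was at 54.5, 22.9 and 18.6 CPM, a log2 difference of -1.61 (SE 0.14, adjusted p = 0.000171). Psph, the last enzyme of serine synthesis, was at 21.8, 11.7 and 8.89 CPM, a difference of -1.23 (SE 0.21, adjusted p = 0.0051). The mitochondrial enzyme Pck2, which makes phosphoenolpyruvate, fell from 110 CPM to 36.6 and 36.3, a log2 difference of -1.44 (SE 0.17, adjusted p = 0.000611). Txnip, a brake on glucose uptake, was at 366, 226 and 219 CPM, and Irs2, an insulin receptor substrate, at 37.2, 16.8 and 17.1 CPM. The log2 differences of Txnip and Irs2 were -0.79 (SE 0.15, adjusted p = 0.00874) and -1.08 (SE 0.17, adjusted p = 0.00264). Without the old refed library, Slc7a11 was the only one of these 5 still past the test.

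**Figure D3:**
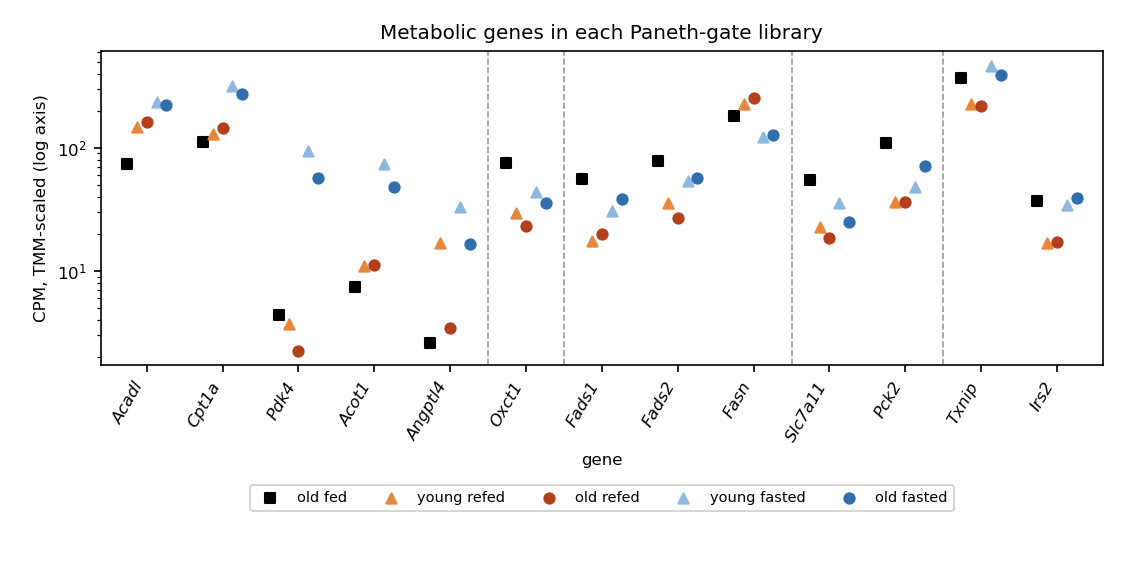
CPM on a log axis in each of the 5 Paneth-gate libraries for 13 metabolic genes, separated by dashed lines. The blocks are fat oxidation and PPAR targets, ketone use, fatty acid synthesis, cystine import and phosphoenolpyruvate (Slc7a11 and Pck2), and glucose and insulin signals. The refed libraries lie between the fed and the fasted ones for Acadl and below the fed one for Pdk4, Oxct1 and Fads2.

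Cell division genes were lower in both refed libraries. Of 25 mitosis genes 24 were lower, against 6.08% of all genes, with a median log2 difference of -1.75. Plk1 was the exception, with a difference of -0.07. Of 30 DNA replication genes 26 were lower, with a median of -1.07, and Gins2, Cdc45, Cdc6 and Fen1 did not pass. Kif11, the spindle motor, was at 57.2 CPM in the old fed library, 16.5 in the young refed and 12.7 in the old refed one, a difference of -2.15 (SE 0.17, adjusted p = 9.92e-05). Cenpa, the centromeric histone, went from 39.7 CPM to 10.5 and 7.56 (-2.40, SE 0.20, adjusted p = 0.000103). Mki67, the proliferation antigen, was at 180, 65.6 and 69.5 CPM, a difference of -1.40 (SE 0.15, adjusted p = 0.0004). The helicase subunit Mcm5 was at 54.8, 22.4 and 19.1 CPM (-1.49, SE 0.16, adjusted p = 0.000466). The replicative polymerase Pole was at 23.3, 8.55 and 7.43 CPM (-1.60, SE 0.18, adjusted p = 0.000533). In each of these 5 genes the fed library was above both refed ones.

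Many promoters of late cell cycle genes hold the cell cycle homology element, TTTGAA, read by the DREAM and MuvB complexes, often beside a CCAAT box. On either strand it matched 17.9% of the 32851 RefSeq promoters, 16 of the 21 mitosis genes with an entry and 3 of the 25 DNA replication genes with an entry. Promoters of a pair of the lower genes are shown because they carry it close to the start, as 100 bases upstream with the element in capitals: Kif11 at chr19:37376282-37376381 (+) and Cdc20, an activator of the anaphase promoting complex, at chr4:118437344-118437443 (-).
Kif11: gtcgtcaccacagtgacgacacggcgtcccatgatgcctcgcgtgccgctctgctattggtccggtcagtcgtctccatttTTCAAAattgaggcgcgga
Cdc20: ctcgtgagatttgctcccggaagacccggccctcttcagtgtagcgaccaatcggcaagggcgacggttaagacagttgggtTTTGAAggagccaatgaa
The matches begin 19 and 18 bases before the start. Cdc20 was at 37.8, 10.8 and 9.29 CPM, a log2 difference of -2.07 (SE 0.20, adjusted p = 0.00021).

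Stem cell markers moved with the division genes. Their summed level was 2506 CPM in the old fed library and 1325 and 1222 in the refed ones, against 13018 to 20939 in the 6 stem libraries and 3576 to 11346 in the 6 progenitor libraries. Of 24 measured stem markers 6 were lower (6.08% of all genes were) and none higher, with a median of -0.51. Olfm4, a secreted stem zone glycoprotein, was at 1443, 456 and 352 CPM (-1.93, SE 0.39, adjusted p = 0.0163). Lgr5, the receptor that defines the stem gate, was at 62.0, 51.9 and 49.7 CPM (adjusted p = 0.821). The part of admixed stem or progenitor cells in the lower division genes was not tested. When the old refed library was left out, 18 mitosis and 3 DNA replication genes passed, and when the young refed one was, 23 and 18.

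**Figure D4:**
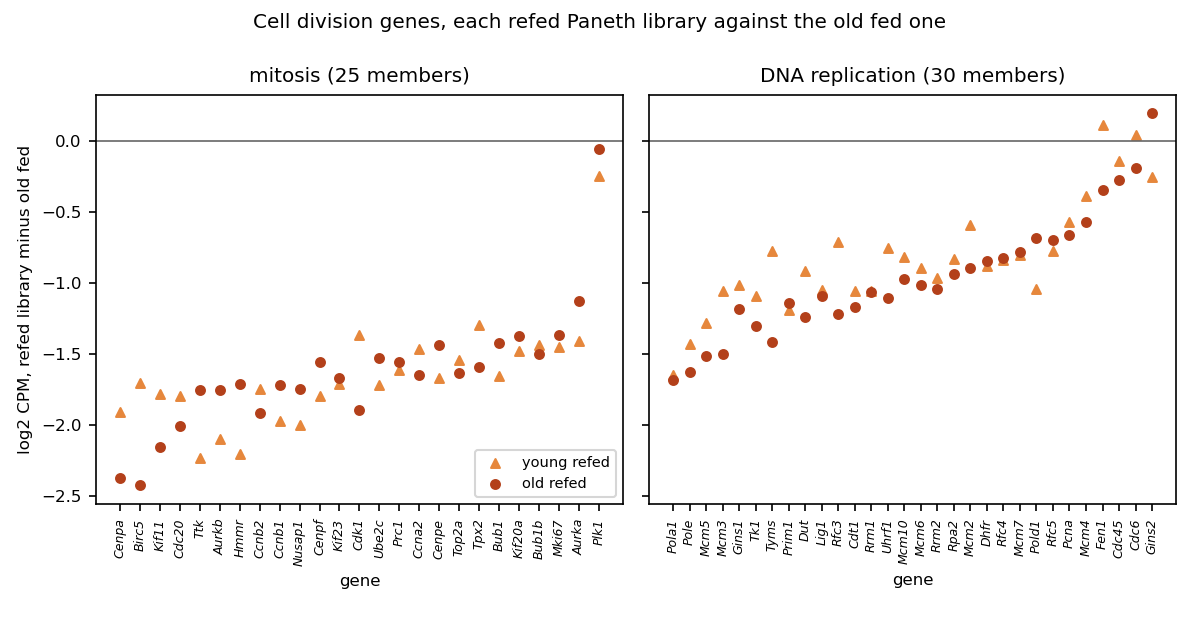
Log2 CPM of each refed Paneth library minus the old fed one for the 25 mitosis and 30 DNA replication genes measured, ordered by the fitted difference; triangles, young refed; circles, old refed. All 25 mitosis genes lie below 0 in both libraries, with Plk1 nearest to it, and Gins2, Cdc45, Cdc6 and Fen1 are the replication genes nearest to or above 0.

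Genes for translation and respiration shifted by smaller amounts. Of 38 cytosolic ribosomal protein genes 14 were lower and none higher (median -0.57), and of 28 oxidative phosphorylation genes 17 were lower and none higher (median -0.59). Rplp1, of the ribosomal stalk, was at 811, 404 and 371 CPM (-1.18, SE 0.22, adjusted p = 0.00693), and Rps2, of the small subunit, at 653, 351 and 374 CPM (-0.87, SE 0.18, adjusted p = 0.0121). Uqcrc2, a core subunit of complex III, was at 198, 140 and 118 CPM (-0.76, SE 0.13, adjusted p = 0.0051), and Cox5b, of cytochrome c oxidase, at 127, 86.6 and 76.7 CPM (-0.78, SE 0.15, adjusted p = 0.00948). Of 20 citrate cycle genes 5 were lower. The share of all genes that were lower was 6.08%. Ribosomal protein genes have many processed copies, which the counting could split. Without the old refed library none of these 3 lists had a member past the test, and without the young refed one 2, 8 and 3 did.

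The antimicrobial genes Paneth cells are known for passed about as rarely as all genes did. Of all genes 6.08% were lower and 2.47% higher. Among 22 measured defensins and other antimicrobials, Defa23 alone passed, at 219, 137 and 80.7 CPM (-1.54, SE 0.30, adjusted p = 0.018). That call was lost in 7 of 24 alternatives, defensin copies share reads, and the gene was named after its value was seen. Lyz1, lysozyme, was at 166300 CPM in the old fed library, 134860 in the young refed and 214490 in the old refed one, so the refed libraries lay on both sides of the fed one (0.26, SE 0.90, adjusted p = 0.907). Mmp7, which activates the pro-defensins, was at 4050, 6324 and 6983 CPM (0.73, SE 0.94, adjusted p = 0.717). The angiogenin Ang4 was at 12986, 16874 and 16843 CPM (adjusted p = 0.792). The SEs of 0.90 for Lyz1 and 0.94 for Mmp7, on the log2 scale, limit what could be detected in them. Each SE rests on a spread shared by all gates and not on the Paneth libraries alone. In progenitor libraries, Paneth markers ran from 0.392% (old fed) to 4.41% (young fasted) of the counts. These SEs may therefore differ from the spread between Paneth libraries, and not passing does not show unchanged levels.

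Signals to and from the stem zone changed in few members. Egf was at 32.3, 36.4 and 40.2 CPM (adjusted p = 0.461), Wnt3 at 159, 228 and 270 CPM (adjusted p = 0.21), and Bst1, which makes cyclic ADP ribose, at 18.8, 26.0 and 7.96 CPM (adjusted p = 0.329). Notum, a secreted enzyme that inactivates Wnt ligands, was at 14.0, 22.0 and 53.3 CPM and rose by 2.11 (SE 0.37, adjusted p = 0.00577). The young refed library was nearer to the fed one than the old refed library was, and without the age term the adjusted p of Notum was 0.306. Of 12 Notch pathway genes 4 were lower, against 6.08% of all genes: the receptors Notch1 (30.7, 19.7 and 15.5 CPM, adjusted p = 0.0188) and Notch2 (15.1, 7.76 and 5.44 CPM, adjusted p = 0.00228), the target Hes1 (41.5, 26.9 and 24.0 CPM, adjusted p = 0.0289) and Nrarp. Their log2 differences were -0.91, -1.43, -0.71 and -0.99, no member of the list passed without the old refed library, and 4 members did without the young refed one. Ccnd1, which encodes cyclin D1, was at 92.6, 59.6 and 49.5 CPM (-0.86, SE 0.12, adjusted p = 0.0019), and Myc at 56.6, 32.1 and 34.5 CPM (-0.80, SE 0.19, adjusted p = 0.027, lost in 6 of 24 alternatives). Of 21 oxidase and redox genes 6 were lower, against 6.08% of all genes. Among them was the superoxide-forming oxidase Nox1, at 11.2, 2.02 and 2.52 CPM from 82, 18 and 19 counts. Its counts in the young and old fasted libraries were 20 and 24, near the refed ones. The activator Noxa1, also lower, was at 41.4, 20.02 and 20.4 CPM. The log2 differences of Nox1 and Noxa1 were -2.07 and -1.03. Both calls were lost without the age term and without the old refed library, where the list had 2 and 0 lower members.

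Some of the largest differences turned on age. Slc28a2, a nucleoside transporter, had the largest fall by the naming rule, -3.08 (SE 0.38, adjusted p = 0.00176). Its levels were 63.5 CPM in the old fed, 61.0 in the young refed and 6.50 in the old refed library, so the young refed library was near the fed one and the old refed library far below it. Without the age term the difference was -0.90 with an adjusted p of 0.768. Vill, a villin-like actin binder, was at 12.9, 60.5 and 69.0 CPM (2.57, SE 0.51, adjusted p = 0.0194). The transcriptional coactivator Pou2af1 was at 5.20, 16.3 and 23.5 CPM (2.12, SE 0.48, adjusted p = 0.0186). In both genes both refed libraries were above the fed one. The call of Vill was lost without the age term, and those of Vill and Pou2af1 without the old refed library.

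Against the fasted libraries of the same gate, which allow 2 against 2 libraries matched by age, chaperone and secretory pathway genes were higher and fat oxidation genes lower in the refed ones. The test called 1127 higher genes (7.32%) and 1413 lower genes (9.18%), together 16.5%, and the median difference was -0.05. These values use the same refed libraries as the comparison with fed, so the 2 sets are not independent. By the same fit, fasted against fed called 98 genes (0.637%), 50 higher (0.325%) and 48 lower (0.312%), and old against young 53 (0.344%). The count for refed against fasted was 431 to 728 when any 1 of these 4 libraries was left out.

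Refed against fasted, 13 of 14 heat shock and 16 of 23 unfolded protein response genes were higher and none lower, with medians of 1.64 and 0.97. Hspa5 was at 470 CPM in the young fasted and 494 in the old fasted library, below the 1800 and 1720 of the refed ones (1.87, SE 0.19, adjusted p = 0.000276). Creld2 was at 25.3 and 30.4 CPM in the fasted libraries (2.26, adjusted p = 5.23e-05), and Dnajb9 at 70.9 and 77.0 (1.89, adjusted p = 7.22e-06). ER entry and exit genes also rose, 19 of 27 and 18 of 28, with none lower. Of all genes 7.32% were higher and 9.18% lower. Ssr3, of the translocon-associated complex, was at 335 and 363 CPM fasted and 552 and 577 refed, with 524 in the fed library (0.70, adjusted p = 0.00112). Lman1, a cargo receptor for glycoproteins, was at 158 and 171 CPM fasted, 287 and 287 refed, and 235 fed (0.81, adjusted p = 0.00035). Bhlha15 (Mist1), a factor of secretory cells, was at 200 and 182 CPM fasted and 429 and 515 refed (1.30, adjusted p = 0.0434), a call lost in 12 of 24 alternatives.

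Of 25 fat oxidation genes 17 fell, as did 11 of 21 targets of PPARα, the fatty acid sensor (PPAR), with none higher in either list and medians of -0.57 and -1.05. Of all genes 9.18% were lower. Pdk4 was at 94.3 and 56.8 CPM in the young and old fasted libraries against 3.71 and 2.25 refed (-4.66, adjusted p = 1.57e-07). Cpt1a was at 320 and 274 CPM fasted (-1.11, adjusted p = 0.000421). Acot1, an acyl-CoA thioesterase whose reads its copy Acot2 can share, was at 73.6 and 48.2 CPM fasted and 10.9 and 11.3 refed (-2.44, adjusted p = 0.000181). Fasn rose from 123 and 127 CPM fasted (0.94, adjusted p = 0.000276), and Srm, the spermidine synthase, from 31.6 and 33.3 to 91.2 and 83.7 CPM (1.43, adjusted p = 6.5e-05). Members of the ATF4 target list went both ways against fasted. Mthfd2, Atf4 and Wars were higher, with log2 differences of 0.72, 0.68 and 0.57, and Slc7a11 was lower, with -0.54. Pck2, Txnip and Irs2 were lower than fasted, with -0.67, -0.94 and -1.10.

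The division genes were also below the fasted level, with 24 of 25 mitosis and 22 of 30 DNA replication genes lower (medians -1.14 and -0.63), against 9.18% of all genes. Kif11 was at 44.1 and 35.2 CPM in the fasted libraries (-1.44, adjusted p = 8.83e-05), and Mki67 at 139 and 135 CPM (-1.02, adjusted p = 0.000306). All 15 measured tuft cell markers were lower, with a median of -1.32. The summed tuft list was 1339 and 664 CPM in the young and old fasted libraries, 450 and 232 in the refed ones and 250 in the fed one. The actin regulator Avil was at 258 and 117 CPM fasted and 94.3 and 51.7 refed (-1.32, adjusted p = 0.000221). The leukocyte phosphatase Ptprc (CD45), which tuft cells also express, was at 60.03 and 21.6 CPM fasted and 16.1 and 3.71 refed (-2.16, adjusted p = 0.000749). The part of tuft cells in the other differences from fasted was not tested. Leaving out any 1 of these 4 libraries lowered the counts to 11 to 19 mitosis genes and 5 to 7 tuft markers.

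Whether refeeding differed between gates was tested as the refed-against-fed difference in the Paneth gate minus that in the stem or progenitor gate. By this test 387 genes differed from the stem gate (2.52%), of which 62 were higher (0.403%) and 325 lower (2.11%) in the Paneth gate, and 92 from the progenitor gate (0.598%), of which 6 were higher (0.0390%) and 86 lower (0.559%). Chaperone genes were also higher in the other gates. In stem cells 13 of 14 and in progenitors 11 of 14 heat shock genes were higher in refed than in fed (5.17% and 6.98% of all genes were higher, and 8.40% and 11.9% were called), as were 15 and 18 of 23 unfolded protein response genes. No heat shock gene passed the difference between gates. Dnajb9 was the only one of the unfolded protein response list to pass, at 19.3 and 19.8 CPM in fed and 30.6 and 26.4 in refed stem cells (Paneth minus stem 1.22, SE 0.19, adjusted p = 0.0123).

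The lower division genes did differ from the other gates. Mitosis genes fell in the stem gate too, 18 of 25, and in the progenitor gate, 24 of 25 (3.23% and 4.95% of all genes were lower). Their median log2 differences were -0.53 and -0.74 there, against -1.75 in the Paneth gate. The difference between gates passed for 16 of 25 mitosis genes against stem and for 8 against progenitor, and for 17 and 2 of 30 DNA replication genes. Of all genes 2.52% passed against stem and 0.598% against progenitor. Kif11 was at 168 and 138 CPM in fed and 100 and 107 in refed stem cells, young then old (Paneth minus stem -1.59, SE 0.20, adjusted p = 0.00647; minus progenitor -1.35, SE 0.20, adjusted p = 0.0211). Mcm5 did not pass in stem cells, at 137 and 146 CPM fed and 161 and 158 refed (Paneth minus stem -1.66, SE 0.20, adjusted p = 0.00537).

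Among metabolic lists, of 26 ATF4 targets, 7 passed against stem and 2 against progenitor, all lower in the Paneth gate. Of all genes 2.11% were lower against stem and 0.559% against progenitor. Slc7a11 was at 59.5 and 56.3 CPM in fed and 63.0 and 54.5 in refed stem cells, with no fall (Paneth minus stem -1.63, SE 0.17, adjusted p = 0.00513). Fads2 was at 205 and 216 CPM fed and 209 and 197 refed in stem cells (-1.33, SE 0.20, adjusted p = 0.0105). Cholesterol synthesis and uptake genes were higher in refed stem cells (9 of 24) and progenitors (16 of 24) and in no case higher in the Paneth gate. Of all genes 5.17% were higher in refed stem cells and 6.98% in refed progenitors. Of the 24, 3 passed the difference against stem and 5 against progenitor, all lower in the Paneth gate. Me1, the malic enzyme that supplies NADPH for lipid synthesis, went from 9.93 and 7.004 CPM to 107 and 68.8 in progenitors, and from 4.79 to 16.3 and 8.09 in the Paneth gate (Paneth minus progenitor -2.70, SE 0.26, adjusted p = 0.00357). On the higher side, 2010011I20Rik was at 49.4 CPM in the old fed Paneth library and 131 and 173 in the refed ones, against 19.2 to 25.0 in the fed and refed libraries of the other gates (1.93, SE 0.30, adjusted p = 0.014 against stem; 1.94, SE 0.30, adjusted p = 0.0264 against progenitor). The fasted Paneth libraries were at 66.2 CPM (young) and 160.2 CPM (old), so the old fasted library was near the refed ones. Its refed-against-fed call in the Paneth gate was lost without the age term and with the Paneth libraries fitted alone. Its differences between gates were lost without the age term and in the 15 libraries of undisputed label. The difference from stem was also lost without the young fed, young refed or old refed stem library. The difference from progenitor was lost without the young fed or young refed progenitor library. Without the old refed Paneth library, of the differences named here, only those of 2010011I20Rik and that of Me1 against progenitor kept their call. The fitted Paneth difference leans most on that library by design.

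**Figure D5:**
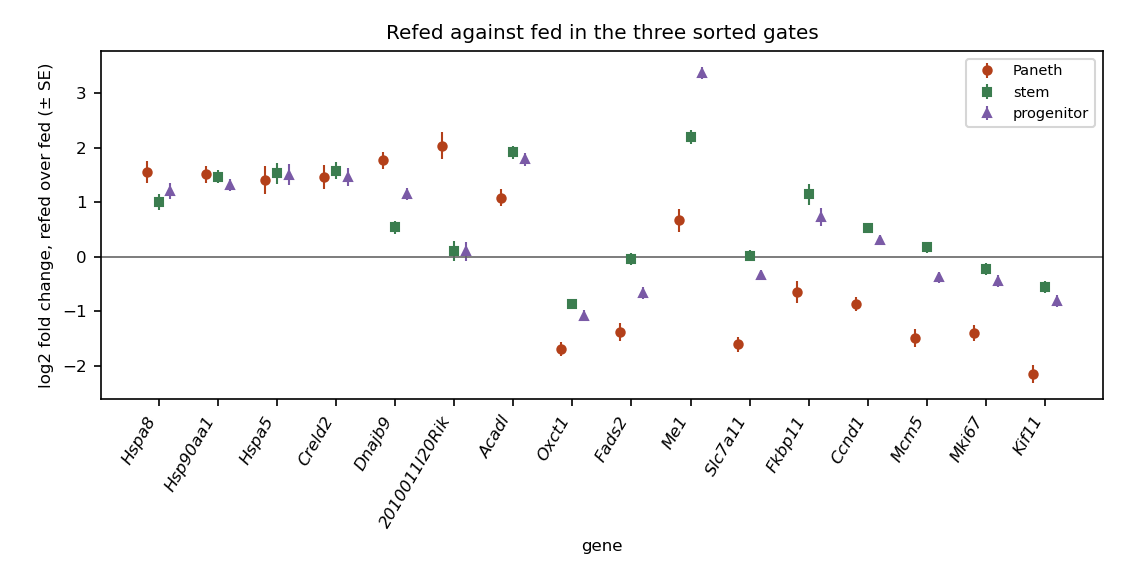
Fitted log2 difference of refed over fed (points) with its SE (bars) for 16 genes in the Paneth, stem and progenitor gates. Hspa8, Hsp90aa1, Hspa5 and Creld2 lie above 0 in all gates, whereas Kif11, Mki67, Mcm5 and Slc7a11 lie lower in the Paneth gate than in the others, as for Kif11 at -2.15 against -0.56 and -0.81.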

How the data were processed

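Poly(A) RNA-seq libraries of sorted crypt cells were deposited as a table of expected counts per gene. The authors made these expected counts with RSEM, and BWA 0.7.12-r1039 and STAR 2.5.3a are also named, per the submitters' processing notes, with builds mm9 and mm10; the libraries were sequenced in 3 runs. Of the deposited expected counts 22.96% were not whole and all were rounded. The counting strand is not given in the sources used here. Symbols came from a gene name table (32722 of 50686 IDs). With R 4.3.3 and edgeR 4.0.16, genes were kept by filterByExpr (minimum count 10, minimum total 15), scaled by TMM, and 15386 were fitted by the quasi-likelihood test in 17 libraries with 12 coefficients, leaving 5 residual degrees of freedom shared by the 3 gates. The biological coefficient of variation was 0.125, estimated from departures from the added age and diet terms and not from replicates. SEs are the log2 difference divided by the square root of F, and Benjamini-Hochberg adjusted p-values were called under 0.05. DESeq2 1.42.0, other scalings, no filter, no age term, fewer libraries and each library but the old fed Paneth one left out were the alternatives.

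Genes were named by rule: the 10 largest called differences in each direction with a mean of at least 3 log2 CPM (prior count 2) and the same sign in both pairs, up to 4 called members of each list, the 5 largest differences between gates, and 39 fixed genes. Other genes were named after their values were seen. Members and lists were chosen with earlier results of these data known. A few genes that the rule names are not reported here.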

Additional observations from a re-analysis of the deposited data

Results flagged for a closer look

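These results stood out because the refed-against-fed difference in the Paneth gate itself differed from that in another gate by edgeR's quasi-likelihood test with Benjamini-Hochberg adjustment. Without the old refed Paneth library all lost their call except 2010011I20Rik in both tests and Me1 against the progenitor gate. These calls of 2010011I20Rik and Me1 were lost without the age term. Values are log2 differences, Paneth minus the other gate.

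Against the stem gate, genes with a higher difference in the Paneth gate were 2010011I20Rik (1.93, adjusted p = 0.014), the growth hormone receptor Ghr (1.56, adjusted p = 0.0123), the activin-type receptor Acvr1c (1.55, adjusted p = 0.0238) and the ER Hsp40 Dnajb9 (1.22, adjusted p = 0.0123). Cell division genes were lower: Kif11 by -1.59 (adjusted p = 0.00647), Mki67 by -1.17 (adjusted p = 0.0123), Mcm5 by -1.66 (adjusted p = 0.00537) and Ccnd1 by -1.39 (adjusted p = 0.00513). Among metabolic genes the values were -1.47 for Fads1, -1.33 for Fads2, -1.63 for Slc7a11, -0.82 for Oxct1, -1.15 for Pck2, -0.83 for Acadl and -1.53 for Me1. Acadl rose in both gates, by 1.08 in the Paneth gate and 1.91 in the stem gate. The receptor Notch2 was at -1.67, the ribosomal stalk gene Rplp1 at -1.18, and the ER peptidyl-prolyl isomerase Fkbp11 at -1.79, which was higher in refed stem cells (1.14) and at -0.65 in the Paneth gate (adjusted p = 0.0664). Susd2, a membrane protein, was at -3.19. Ptprc had a fitted value of -6.51, which rests on stem libraries at or near 0 and gives no fold. Of 17 alternatives, Acadl and Rplp1 each lost the call in 11 and Oxct1 in 10.

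Against the progenitor gate, 2010011I20Rik (1.94), the adhesion protein Ninj1 (1.13) and the AP-1 subunit Jun (1.09) were higher, with adjusted p-values of 0.0264, 0.0362 and 0.0321. Lower were Susd2 (-3.33), Me1 (-2.70), Kif11 (-1.35), Mki67 (-0.95), Mcm5 (-1.11), Slc7a11 (-1.27), Fkbp11 (-1.37), Ccnd1 (-1.17), Txnip (-1.22) and Irs2 (-1.13). Of 17 alternatives, Mki67 lost its call in 12, Fkbp11 in 11, Irs2 in 10, Ninj1 and Mcm5 in 8 each, and Jun in 7.

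In the library labelled young fasted stem that was left out, Lyz1 was at 60310 CPM before scaling, against 299 to 430 in the 6 other stem libraries and 72390 to 112500 in the 5 Paneth libraries. Paneth markers made up 36.46% of its counts, against 0.164% to 0.254% and 38.17% to 43.93%.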

How the results depend on the processing

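No paired analysis was possible because the labels give no replicate numbers that link libraries across groups, and each group holds 1 library; refed and fasted libraries are matched by the age term alone. In refed against fed, counts of called genes ran from 146 (without the old refed Paneth library) to 1439 (without the old fed progenitor one) when 1 library was left out; refed against fasted ran from 431 to 2745, Paneth minus stem from 1 to 324 and Paneth minus progenitor from 2 to 530. Where a lone library remains, edgeR assumes that it varies like the others. DESeq2 called 1625 genes in refed against fasted and 192 in Paneth minus progenitor. Paneth minus stem gave 938 genes with no expression filter, 192 with no age term and 218 in the 15 libraries of undisputed label; Paneth minus progenitor gave 736, 19 and 19, and 59 with upper-quartile scaling. The cause was not tested. Without the old refed Paneth library, Lyz1 went to -0.0695 and Cpt1a to -0.0131 in refed against fed, and the ranges over left-out libraries ended at 0.37 for Lyz1 and 0.38 for Cpt1a. Without that library all 50 named genes called in refed against fed had the same sign, and 14 still passed. Of the recomputed gene values, 2998 kept direction and side of the threshold, 312 lost the call, 18 gained it and 2 turned sign. With 5 residual degrees of freedom and 1 library a group, small differences are not detectable.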
